A study of Mus musculus with 12 samples.

Results

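The nuclear factor I (NFI) family of transcription factors is encoded by 4 mouse genes, Nfia, Nfib, Nfic and Nfix, and all 4 were examined here among 21887 protein-coding genes. They were taken by name, and pan-lysine-crotonylation (pan-Kcr) peaks were collected in each gene body and in the 20 kb on either side of it, called the window of the gene. The windows held 35 of 16002 peaks from trained mice and 210 of 331236 peaks from home cage mice. Nfix was chosen by its peak counts, which were already known to be high in both libraries, so these counts are a description and no test was made on them.

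Dorsal hippocampus of C57BL/6J mice was analysed by ChIP-seq, the sequencing of DNA recovered with an antibody from fixed chromatin, here an antibody against crotonylated lysine in any protein. The learning group had been trained in spatial object recognition, a test of memory for the position of objects, and the homecage group had stayed in its cage. The comparison addresses where crotonylation is found on chromatin with and without training. Each group had 1 antibody library, age, sex and pooling of the animals are not given in the sources used here, and the 2 input and 8 single-nucleus libraries of the series were not analysed here. Without expression values the tissue could not be checked by its markers.

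NFI proteins bind DNA as homodimers or heterodimers at a palindrome of the arm TTGGC, 5 bases of any kind and the reverse arm GCCAA, through a conserved amino-terminal domain, and activate or repress transcription depending on the gene. Nfia, Nfib and Nfix are known for their part in the switch of neural progenitors towards glia and in the development of the hippocampus. Nfix is also known for its role in the quiescence of adult hippocampal stem cells, and Nfic is best known for tooth root formation. Crotonylation of histone lysines is associated with transcribed chromatin.

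The homecage list was 20.7 times as long as the learning list (331236 and 16002 peaks on chromosomes 1 to 19, X and Y), and neither library's read depth is known. Peak counts of the 2 libraries are therefore given side by side, and neither their differences nor their ratios measure a change in crotonylation. The values per gene are set against the other genes of the same library. Intervals given for peak densities are exact 95% Poisson intervals, which cover counting error only and treat neighbouring peaks as independent.

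RefSeq promoter windows of 300 bases were matched for 3 of the 4 genes, 6 windows in all, 4 of them in Nfix. They belong to start sites inside the genes, and not to the 5' ends of the gene bodies. These start sites lay 3.88 kb from the 5' end in Nfia, 4.75 kb in Nfic and 21.2 to 28.4 kb in Nfix. Learning peaks overlapped 1 of the 6 windows (4.15% of all 32851 promoter windows had one), homecage peaks overlapped 4 of the 6 (17.9% of all), and both lists overlapped 1 of the 6 (2.58% of all). The window of Nfic was covered over all 300 bases by both lists. Homecage peaks overlapped 3 of the 4 Nfix windows, 2 of them through the same peak of 2755 bp, and learning peaks none. The Nfia window had no peak in either list, and the nearest homecage peak lay 378 bp away. These 3 states are given in RefSeq sequence of build GRCm38.p6, with the NFI arm TTGGC or its reverse complement GCCAA in capitals.
Nfic, chr10:81427124-81427423, minus strand, peak in both lists: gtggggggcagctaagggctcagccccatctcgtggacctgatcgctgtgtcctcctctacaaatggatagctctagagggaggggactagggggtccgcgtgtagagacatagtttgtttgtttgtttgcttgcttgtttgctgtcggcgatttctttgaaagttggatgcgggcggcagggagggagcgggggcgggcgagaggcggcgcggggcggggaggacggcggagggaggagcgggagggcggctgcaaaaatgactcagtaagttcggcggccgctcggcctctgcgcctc
Nfix, chr8:84772826-84773125, minus strand, homecage peak alone: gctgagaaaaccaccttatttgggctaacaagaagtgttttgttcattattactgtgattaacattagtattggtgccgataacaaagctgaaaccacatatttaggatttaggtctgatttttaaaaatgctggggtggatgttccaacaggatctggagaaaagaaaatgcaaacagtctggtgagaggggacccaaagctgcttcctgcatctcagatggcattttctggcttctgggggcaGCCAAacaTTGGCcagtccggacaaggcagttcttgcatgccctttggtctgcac
Nfia, chr4:97581693-97581992, plus strand, no peak: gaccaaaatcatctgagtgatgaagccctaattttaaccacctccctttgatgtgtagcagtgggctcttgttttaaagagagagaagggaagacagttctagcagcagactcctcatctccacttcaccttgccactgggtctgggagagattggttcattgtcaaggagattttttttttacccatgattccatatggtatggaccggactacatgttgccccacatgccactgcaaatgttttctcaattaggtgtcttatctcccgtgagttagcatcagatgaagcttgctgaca

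The Nfic window was rich in CG dinucleotides, with 8 per 100 bases and 63.0% G and C, against medians of 2.33 and 52.7% over all windows. The Nfix window shown had 0.667 CG dinucleotides per 100 bases and 44.3% G and C, and the Nfia window 0.667 and 44.7%. The other Nfix windows varied from 1.33 to 4.33 CG dinucleotides per 100 bases and from 49.3 to 57.3% G and C, and the highest CG value among them was in the Nfix window with no peak. A TTGGC arm on either strand was found in 3 of the 6 NFI windows, all of them in Nfix, and in 46.7% of all windows. The Nfix window shown held 2 arms in opposite orientation. The full palindrome, TTGGC and GCCAA with 5 bases between them, which contains an arm at each end, was in 0 of the 6 windows and in 12 of the 32851. These matches describe letters in the windows and not occupied sites.

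Peak density within the family ran from 0.689 to 14.6 peaks per 100 kb in the learning library. All 4 genes had a learning peak in the window (43.2% of all protein-coding genes did, and 61.4% of the 4945 genes of 50 kb or more). Nfix had 20 learning peaks, 14.6 per 100 kb of window (interval 8.95 to 22.6). Nfic had 7, or 9.24 per 100 kb (3.72 to 19.05). Nfib had 4, or 1.56 per 100 kb (0.425 to 3.99), and Nfia had 4 in a window of 581 kb, or 0.689 per 100 kb (0.188 to 1.76). In this order, the intervals of each gene and the next overlapped. Since Nfix was chosen by its counts, its intervals describe their precision and separate it from no other gene.

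The order of the 4 genes by density was the same in the homecage library. All 4 genes had a homecage peak, as did 95.1% of protein-coding genes. Nfix had 49 homecage peaks, 35.9 per 100 kb (26.6 to 47.4). Nfic had 17 (22.4 per 100 kb, 13.1 to 35.9), Nfib 46 (17.9 per 100 kb, 13.1 to 23.9) and Nfia 98 (16.9 per 100 kb, 13.7 to 20.6). All 4 values lay above the median of all protein-coding genes, 13.7 per 100 kb, but only the Nfix value exceeded the 95th percentile of 24.2. In the learning library the 95th percentile was 4.14 per 100 kb, and the values of Nfix and Nfic lay above it.

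**Figure D1:**
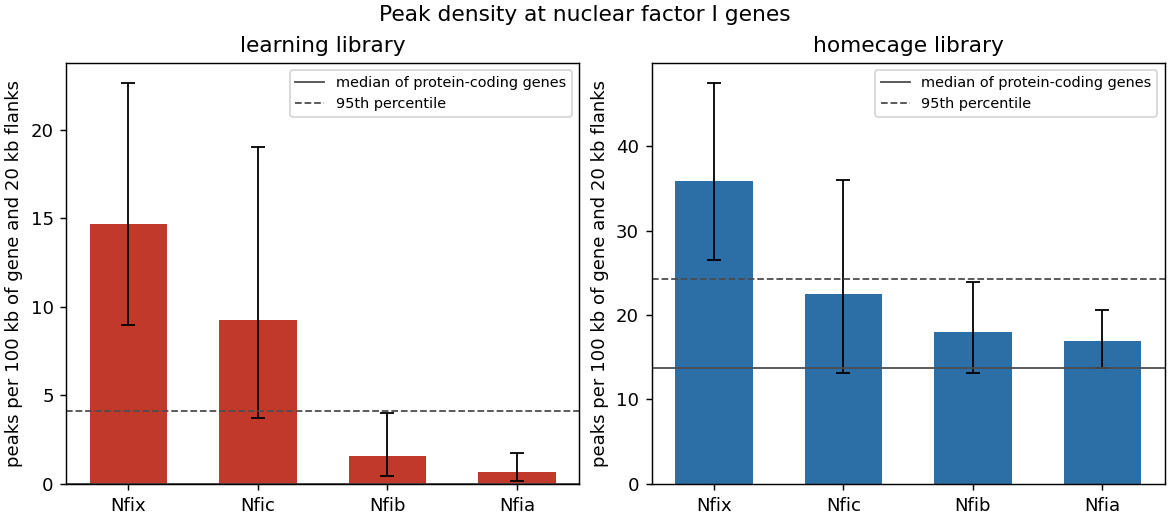
Peaks per 100 kb of gene body and 20 kb flanks for the 4 NFI genes in the learning library (left) and the homecage library (right). Bars are counts from 1 library each, error bars exact 95% Poisson intervals, and lines the median (0 in the learning library) and 95th percentile of 21887 protein-coding genes; Nfix has the highest bar in both libraries, at 14.6 and 35.9.

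Summed over the 4 windows, the density was 3.33 learning peaks per 100 kb (2.32 to 4.64) and 20.0 homecage peaks per 100 kb (17.4 to 22.9). Nfix held 57.1% of the learning peaks and 23.3% of the homecage peaks in 13.0% of the summed length. Without Nfix the family had 1.64 learning peaks per 100 kb (0.919 to 2.71) and 17.6 homecage peaks per 100 kb. The family value in the learning library thus rested mainly on Nfix, and Nfic held 7 of the 15 learning peaks of the other 3 genes. The number of homecage peaks per learning peak was 2.45 at Nfix, 2.43 at Nfic, 11.5 at Nfib and 24.5 at Nfia, against 20.7 for the whole lists. Low ratios were common among genes with many learning peaks, since the 157 genes with 7 or more had a median ratio of 2.86.

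The Nfix gene lies on chromosome 8 from 84704712 to 84801238 (96.5 kb, minus strand), with its 5' end at the higher coordinate. All 20 learning peaks lay in the gene body, from 84705172 to 84799873, and none in the flanks. Their widths ran from 146 to 1213 bp with a median of 410 bp, and 14 of the 20 were wider than the median of the learning list, 306 bp. Of the 49 homecage peaks, 42 lay in the body and 7 in the flanks alone. In the 500 kb beyond the window on each side there were 6 and 5 learning peaks, 1.10 per 100 kb, so that the density in the window was 13.3 times that of its surroundings. For homecage peaks the surroundings had 13.2 per 100 kb, and the window had 2.72 times as many. The first learning peaks outside the window lay 19033 bp below it and 10883 bp above it.

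Homecage peaks covered 31.1% of the Nfix window, and learning peaks 7.03%. The medians over all protein-coding genes were 5.34% and 0%. Among the 4945 genes of 50 kb or more, Nfix ranked 4 by homecage coverage and 10 by learning coverage. The upper 32.2 kb of the gene, which contains the 5' end, had 9 learning peaks, and 55.5% of its bases were in homecage peaks. The middle of the gene had 4 learning peaks and 35.4% in homecage peaks, and the lower part, which contains the 3' end, 7 and 30.5%. A stretch of 18369 bp inside the gene (84745847 to 84764215) had no learning peak but 6 homecage peaks, which covered 25.1% of it.

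**Figure D2:**
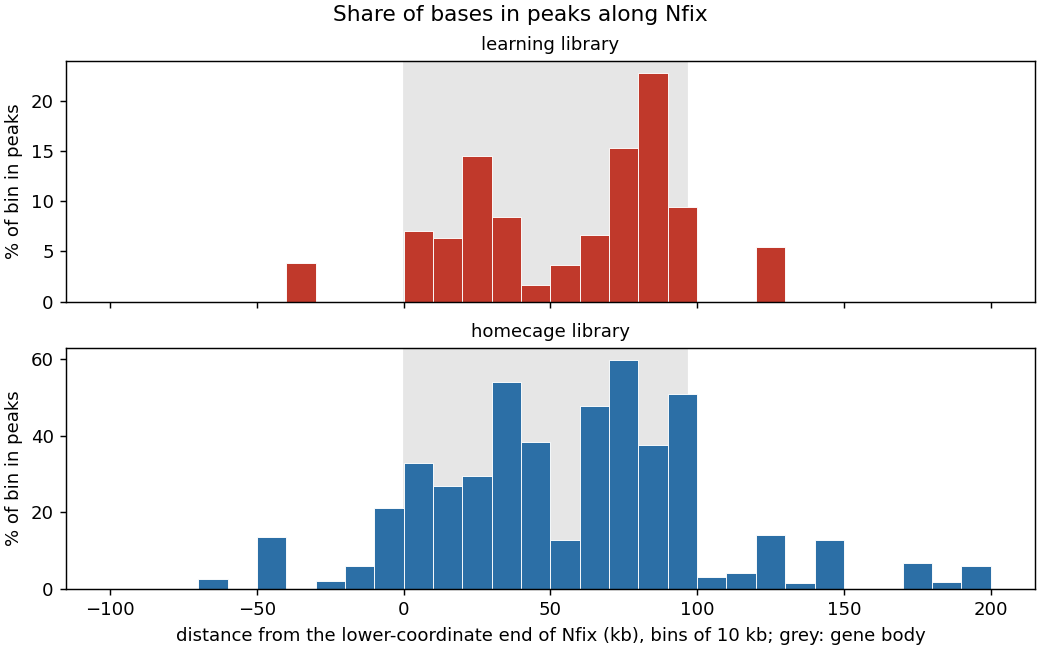
Share of bases in peaks per 10 kb bin along Nfix and 100 kb on either side, for the learning (top) and homecage (bottom) libraries, against distance in kb from the lower-coordinate end of the gene; the gene body is grey. In the bins that start inside the gene, 12.8 to 59.9% of bases are in homecage peaks and 1.68 to 22.8% in learning peaks, and the highest bins of both libraries lie between 70 and 90 kb.

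The widest homecage peaks of the family were in Nfix. They lay at 84797174 to 84800964 (3791 bp, rank 30 of all 331236 homecage peaks by width, 274 bp from the 5' end of the gene), at 84740762 to 84744324 (3563 bp) and at 84770929 to 84773683 (2755 bp). The first contained a whole learning peak of 943 bp (84798931 to 84799873). The other 2 had no learning peak, and the one of 2755 bp covered the Nfix promoter window given with its sequence. Peaks of 1000 bp or more made up 13 of the 49 Nfix homecage peaks (26.5%), compared with 3.04% of the whole homecage list. In the learning list, 2 of the 20 Nfix peaks reached 1000 bp (10%), compared with 1.65% of the list. They lay at 84784780 to 84785992 (1213 bp) and 84729207 to 84730319 (1113 bp). Of the 1213 bp peak only 10.2% was inside a homecage peak, and the 1113 bp peak lay 87 bp from the nearest homecage peak without touching it.

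At its 3' end Nfix meets Lyl1, a haematopoietic transcription factor gene whose annotation overlaps that of Nfix. A homecage peak of 1972 bp (84703726 to 84705697) spanned this end and reached into both genes, and a learning peak of 707 bp began 460 bp inside Nfix. Lyl1 itself had no learning peak, and 56.0% of its 3294 bp was in homecage peaks. Inside Nfix, 3 learning peaks overlapped the long noncoding RNA gene G430095P16Rik (84723057 to 84726846), and 52.7% of that gene was in homecage peaks. At the 5' end the nearest learning peak was 1365 bp away. Of the 4 annotated Nfix start sites with a promoter window, at 21.2 to 28.4 kb inside the gene, the uppermost had a learning peak 160 bp and a homecage peak 106 bp from its window.

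**Figure D3:**
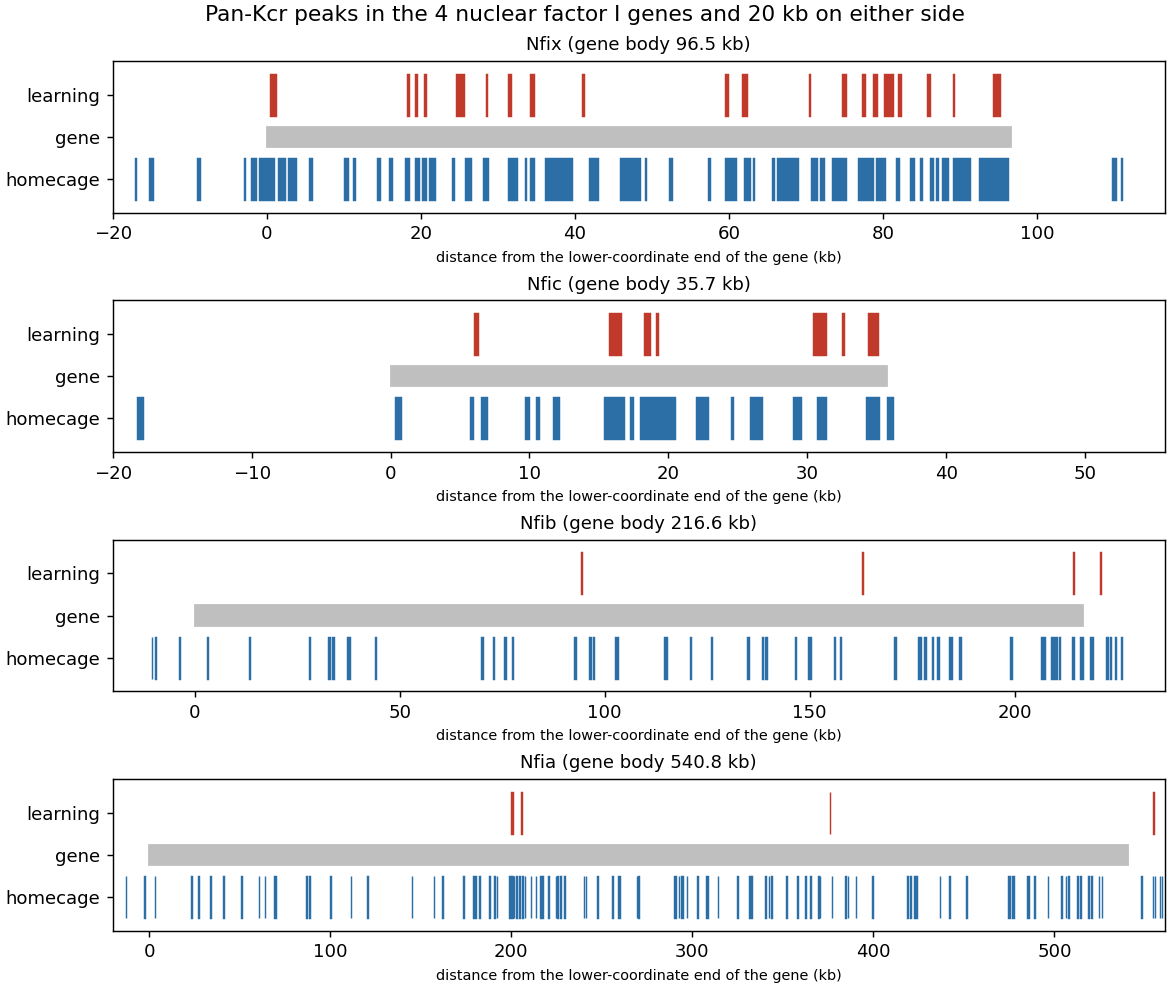
Learning peaks (red) and homecage peaks (blue) drawn to scale in the 4 NFI genes (grey bars) and 20 kb on either side, against distance in kb from the lower-coordinate end of each gene; the panels have different scales. The 20 learning peaks of Nfix all lie in the gene body, with a stretch of 18369 bp free of them, and Nfia has 4 learning peaks in a window of 581 kb.

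Nfic lies on chromosome 10 from 81396191 to 81431919 (35.7 kb, minus strand) among short genes, with 4 other protein-coding genes in its lower flank (Fzr1, Dohh, Gm48552 and Smim24). All 7 learning peaks and 15 of the 17 homecage peaks were in the gene body, and no learning peak lay in any of these neighbours. The body alone had 19.6 learning peaks per 100 kb, close to the 20.7 of the Nfix body. The 500 kb on either side of the window were also richer than those of the other 3 genes, with 2.20 learning peaks per 100 kb, and the Nfic window exceeded them 4.20-fold. The widest learning peak, 930 bp (81426615 to 81427544), covered the printed promoter window and overlapped a homecage peak of 615 bp. One of 689 bp (81430598 to 81431286) lay 633 bp from the 5' end within a homecage peak of 894 bp. Another of 865 bp (81411898 to 81412762), lay within a homecage peak of 1413 bp.

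The widest homecage peak of Nfic, 2525 bp (81414171 to 81416695, rank 190 of the list), contained 2 learning peaks of 430 and 146 bp and the whole microRNA gene Mir1191b. The next in width were those of 1413 bp and 908 bp, the latter over the long noncoding RNA gene Gm51811 with no learning peak. Homecage peaks covered 43.9% of the middle 11.9 kb of the gene, 26.4% of the part with the 5' end and 16.2% of the part with the 3' end. Learning peaks covered 12.1%, 15.0% and 2.38% of the same parts, so the most covered part was the middle in the homecage list and the 5' part in the learning list.

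Nfib lies on chromosome 4 from 82290173 to 82506751 (217 kb). Its 4 learning peaks were narrow, at 146 to 270 bp, all below the list's median of 306 bp. They lay at 82384417 to 82384686, at 82452858 to 82453117, at 82504451 to 82504596 and, outside the gene, at 82511033 to 82511214 in the long noncoding RNA gene Gm11266. Gm11266 had 4 learning peaks in all, and the first of those beyond the window was 9.81 kb outside it, so a wider flank takes more of them in. The peak at 82504451, 2155 bp inside the upper end of Nfib, was the only one of the 4 within a homecage peak (598 bp). Homecage peaks became denser towards the upper end, with 8, 13 and 17 in the lower, middle and upper 72.2 kb and 3.79%, 7.06% and 12.5% of bases covered. The widest were 1535 bp (82499058 to 82500592), 1023 bp and 871 bp, and the last spanned the upper end of the gene.

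Nfia, on chromosome 4 from 97578066 to 98118876 (541 kb, plus strand), was the longest gene and had the lowest learning density of the family. Its learning density was near the median of genes of 50 kb or more, 0.546 per 100 kb, and ranked 2155 of 4945. A learning peak of 913 bp (97777921 to 97778833), 200 kb inside the gene, was contained in the widest homecage peak of the gene (97777725 to 97779128, 1404 bp), and the long noncoding RNA gene Gm38709 ended 497 bp below it. The other 3 learning peaks, at 97783334 to 97783817 (484 bp), 97953935 to 97954361 (427 bp) and, beyond the 3' end, 98132646 to 98132791 (146 bp), were 420, 627 and 56 bp from the nearest homecage peak. The next widest homecage peaks measured 1309 and 1281 bp. The middle 180 kb held 42 of the homecage peaks, compared with 19 in the part with the 5' end and 30 in the part with the 3' end.

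Peaks near gene ends were present in some members. A learning peak lay within 1 kb of an end at Nfic and Nfix, 2 of 4 genes, and 15.6% of all protein-coding genes had one. A homecage peak did so at Nfib, Nfic and Nfix, 3 of 4 genes, and 60.9% of all did. At Nfia the nearest homecage peaks were 2377 bp from the 5' end and 7133 bp from the 3' end.

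Of the 35 learning peaks in the 4 windows, 23 overlapped a homecage peak (65.7%, exact Clopper-Pearson 95% interval 47.8 to 80.9%), and 43.1% of all learning peaks did. By gene the counts were 16 of 20 at Nfix (80.0%, 56.3 to 94.3%), 5 of 7 at Nfic (71.4%, 29.0 to 96.3%) and 1 of 4 each at Nfib and Nfia (25%, 0.631 to 80.6%). Without Nfix the count was 7 of 15 (46.7%, 21.3 to 73.4%), an interval that contains the 43.1% of all learning peaks. It also contains the family share of 65.7%, but these 15 peaks are part of that share, so the 2 values are not independent. The higher shares were those of Nfix and Nfic. Homecage coverage was 31.1% in the Nfix window and 14.7% in the Nfic window, but 7.51% at Nfia and 7.79% at Nfib. Higher coverage raises the chance of an overlap, and its part in these shares was not tested. At Nfix, 56.2% of the bases in learning peaks were inside homecage peaks, and 9 of the 20 learning peaks lay wholly inside one. The 4 Nfix learning peaks with no overlap were 17 to 683 bp from the nearest homecage peak. In the other direction, 21 of the 210 homecage peaks overlapped a learning peak (10.0%, 6.30 to 14.9%), compared with 2.05% of the whole homecage list. Of the 21, 15 were in Nfix, which was chosen for its many peaks in both lists. Without Nfix the count was 6 of 161 (3.73%, 1.38 to 7.93%), an interval that contains the 2.05% of the whole list.

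Homecage peaks with a learning partner were wider. In Nfix their median was 1116 bp, against 428 bp for the 34 others. Over the 4 genes it was 1116 bp against 384 bp. Learning peaks that overlapped had a median of 463 bp, and those that did not 265 bp. By gene the order was the same at Nfix, Nfic and Nfia. It was reversed at Nfib, where the overlapping peak had 146 bp and the others a median of 260 bp. Nfia and Nfib had only 1 overlapping learning peak each. Width itself raises the chance of an overlap, and no test was made.

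**Figure D4:**
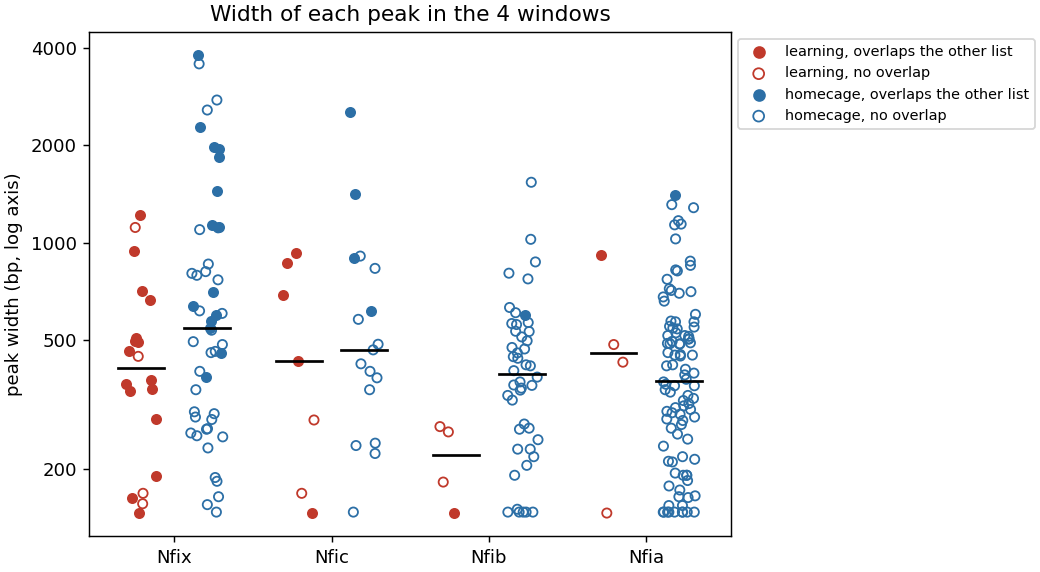
Width in bp (log axis) of each learning (red) and homecage (blue) peak in the 4 NFI windows; filled points overlap a peak of the other list, open points do not, and the black lines are medians. Nfix has 5 homecage peaks of 2000 bp or more, Nfic has 1, and Nfib and Nfia have none.

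Among the 4945 protein-coding genes of 50 kb or more, Nfix ranked 11 in learning density and 14 in homecage density, and 6 genes reached or exceeded it in both. With the gene body alone the ranks were 7 and 5, and with flanks of 50 kb they were 15 and 23. Among all 21887 protein-coding genes, with flanks of 20 kb, Nfix ranked 76 in learning and 173 in homecage density, and Nfic 162 and 1596. The 10 genes of 50 kb or more above Nfix in the learning library were named after their values were seen. They were Sfi1, Zfp978, Sp140, Zfp984, Zfp982, Gm38510, Rex2, Gm5373, Gm7592 and Ugt1a5, with 14.9 to 29.6 learning peaks per 100 kb. Several belong to multigene families and some are neighbours, so related copies can share reads and their counts are uncertain. Whether reads were shared between copies at any gene was not tested. The 3 genes most like Nfix, by distance on log2(peaks per 100 kb + 1) over the 2 libraries among 4724 autosomal genes of 50 kb or more, were Gm8126 (13.4 learning and 39.1 homecage peaks per 100 kb, distance 0.17), Zfp936 (13.6 and 39.8, distance 0.18) and Gm5373 (16.7 and 32.4, distance 0.23). Zfp936 encodes a zinc finger protein of a large family, and the other 2 are predicted genes.

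**Figure D5:**
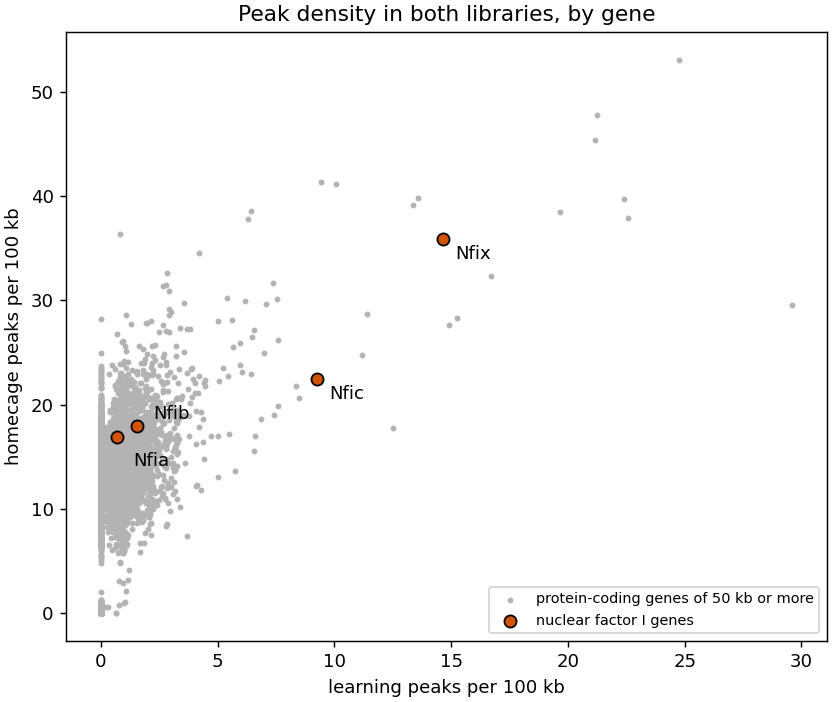
Learning against homecage peaks per 100 kb of gene body and 20 kb flanks for 4945 protein-coding genes of 50 kb or more (grey) and the 4 NFI genes (orange; Nfic, at 35.7 kb, is shorter than the grey genes). Nfix lies among few genes that are high in both libraries, and Nfia and Nfib lie within the main cloud.

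Besides the family, 3 lists of genes were examined. They held genes known to be regulated by NFI factors, regulators of neural progenitors and astrocyte formation, and transcription factors of hippocampal neurons. Hes1 and Sox9 were in both the first and the second list and are counted in each. Of 16 genes known to be regulated by NFI factors, 9 had a learning peak in the window, with a median of 0.833 per 100 kb, and all 16 had a homecage peak, with a median of 13.5 per 100 kb. Over all protein-coding genes 43.2% had a learning peak, with a median of 0, and the homecage median was 13.7 per 100 kb. Longer genes had a learning peak more often (61.4% of those of 50 kb or more). Median gene length was 32.7 kb in this list and 17.2 kb over all protein-coding genes, and the part of length in these shares was not tested. Fabp7, a fatty acid binding protein of radial glia, had the highest learning density of this list (4 peaks, 9.19 per 100 kb, all in the flanks and none in the gene body), and Gfap, the astrocyte filament protein, the highest homecage density (12 peaks, 24.1 per 100 kb). A learning peak lay within 1 kb of an end at 5 of the 16 genes (15.6% of all protein-coding genes had one).

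Of 24 regulators of neural progenitors and astrocyte formation, 9 had a learning peak (37.5%, against 43.2% of all protein-coding genes), and the list's median was 0 learning and 16.4 homecage peaks per 100 kb. These genes were short, with a median length of 5.23 kb against 17.2 kb over all protein-coding genes. Sox8, a relative of Sox9, was highest in both libraries (4.46 and 38.0 per 100 kb), with both of its learning peaks in the flanks. Zbtb20, a repressor needed for hippocampal identity, had 2 learning peaks in a gene of 759 kb (0.25 per 100 kb). Of 22 transcription factors of hippocampal neurons, 15 had a learning peak (68.2%, against 43.2% of all protein-coding genes and 61.4% of those of 50 kb or more, a length that 11 of the 22 reach), with medians of 1.03 learning and 18.998 homecage peaks per 100 kb. Neurod2, a neuronal differentiation factor, was highest in both (9.04 and 40.7 per 100 kb), with 1 of its 4 learning peaks in the gene body, and Tcf4 had 13 learning peaks in a gene of 345 kb (3.38 per 100 kb). No gene of the 3 lists reached the learning density of Nfic or Nfix. Short genes have windows made mostly of flanks, so a single peak weighs more there.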

How the data were processed

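Each deposited file is a list of broad peaks with 4 columns (chromosome, start, end and name) for 1 antibody library. Per the file's peak names the authors called peaks at p = 0.01, and the submitters' processing notes list Trimmomatic, BWA, MACS2 and the build mm10, without their roles. Read depth, filters and the use of the input libraries are not given in the sources used here. The files carry no strength, so peaks were measured by position and width alone.

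Libraries were grouped by their titles. Starts were made 1-based, and peaks on chromosomes 1 to 19, X and Y were used. Gene bodies came from RefSeq for GRCm38.p6, the same primary assembly as mm10, with strand where the RefSeq promoter table gave one. A peak counted in a gene if it overlapped the body or its 20 kb flanks by at least 1 bp, and peaks of both lists were shared at an overlap of at least 1 bp. Exons and introns were not analysed here. The tools were Python 3.11.15, scipy 1.17.1, matplotlib 3.10.9, pandas 2.3.3 and numpy 2.4.6, and the counting functions were tested on simulated data. With 1 library per condition no test between conditions was made.

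The genes, lists and alternatives were chosen with earlier results of these data known. Named were the 4 genes, their learning peaks, the 3 widest homecage peaks of each, the 3 genes most like Nfix, and the densest gene of each list in each library. Zbtb20 and Tcf4 were named after their values were seen.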

Additional observations from a re-analysis of the deposited data

How the results depend on the processing

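No paired analysis was possible because the antibody libraries number 1 per condition, which also allows no replicate to be left out. Of 38 recomputed values for 5 results, 25 stayed within 1.5 times the reported density or within the interval of the reported share, among them all those with other flanks, peak centres or neighbouring genes left out. With peaks of at least 500 bp, the family had 0.953 learning and 7.53 homecage peaks per 100 kb, and Nfix 4.39 and 19.04. With the homecage list reduced to its widest peaks, as many as the learning list holds, the family had 2.48 homecage peaks per 100 kb and Nfix 9.52. Merging peaks closer than 1 kb lowered Nfix to 22.0 homecage peaks per 100 kb. Without Nfix, an alternative chosen after the data were seen, the family had 1.64 learning peaks per 100 kb, and 46.7% of its learning peaks overlapped a homecage peak. That share for the 4 genes was 17.1% where each peak had to cover 50% of the other, and 88.6% with a homecage peak within 1 kb. It was 40% with the widest homecage peaks, and 90.0% for the 10 learning peaks of at least 500 bp. Shares of all learning peaks under the same rules are not given here, so these values describe the 4 genes alone. Unknown depth limits every count, and a gene without a peak may only lack reads.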
